A study of Mus musculus with 10 samples.

Results

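The genes described here are 10 components of the machinery for endoplasmic reticulum (ER)-associated degradation (ERAD), measured by RNA sequencing of mouse colon: the mannosidase-like proteins Edem1, Edem2 and Edem3, the lectin Os9, the membrane complex genes Sel1l, Syvn1 and Herpud1, and the Derlins Derl1, Derl2 and Derl3. They were chosen by name, with no threshold on a measured value but with earlier results of these data known, and are 10 of the 29320 genes of the deposited table. All 10 passed the filter on low counts, which left 20472 genes for testing.

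ERAD removes proteins that fail to fold in the ER. Mannosidase-like proteins trim the N-glycans of such clients, and the lectin OS9 reads the trimmed glycan and hands the client to SEL1L, the partner of the membrane ubiquitin ligase HRD1 (encoded by Syvn1). Derlins help the client cross the membrane, and the ATPase p97 then pulls it into the cytosol for the proteasome. ERdj5, the product of Dnajc10, is an ER-resident reductase with a J domain that binds EDEM1 and breaks disulfide bonds of ERAD clients. Secretory epithelia such as the colon, where goblet cells make large disulfide-bonded mucins, and antibody-secreting plasma cells load this pathway heavily.

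The 10 libraries were made from whole colon of 8-week-old female mice and carry the label Day 5. Untreated wild-type (WT) colon gave 2 libraries, WT colon after 2% dextran sulfate sodium (DSS) gave 3, untreated ERdj5-KO colon gave 2 and DSS-treated ERdj5-KO colon gave 3. DSS, a sulfated polysaccharide that injures the colonic epithelium, was given in the drinking water for 5 days. WT mice were C57BL/6 animals from a commercial supplier, and the ERdj5-KO line came from the RIKEN BioResource Center, with no tissue-specific driver named. The sources used here do not state that the genotypes were littermates, and the legend of the study gives more mice per untreated group than there are libraries of it here. The labels do not say which mouse gave which library, and the tests measure the spread between these libraries. Libraries are named by the numbers in the table's column headers, which differ from the replicate numbers in the titles of the samples.

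The libraries held 49689389 to 72197887 counts over genes. Dnajc10 reached 113 and 132 CPM (counts per gene scaled to library size) in untreated WT and 140, 138 and 121 CPM in DSS-treated WT, against 18.4 and 20.0 CPM in untreated KO and 25.6, 23.9 and 30.4 CPM in DSS-treated KO, so its levels followed the genotype labels and reads remained in KO colon. Marker genes of some cell types of the colon wall differed between groups. The summed level of 12 smooth muscle genes was 10173 and 12004 CPM in untreated KO, 2995 to 5462 CPM in the 5 WT libraries and 679 to 1114 CPM in DSS-treated KO. The summed level of 15 goblet cell genes was 11951 to 14217 CPM in WT, 10398 and 12889 CPM in untreated KO and 5314 to 8929 CPM in DSS-treated KO. Between the DSS-treated groups, all 12 smooth muscle genes and 9 of 15 goblet cell genes were called lower in KO, as were 9 of 12 T cell, 3 of 10 fibroblast and 2 of 15 colonocyte genes, while 10 of 12 neutrophil, 1 of 12 macrophage and 1 of 15 colonocyte genes were called higher. Over all genes 14.9% were called in each direction, and the colonocyte and macrophage counts did not exceed that share. The summed level of the neutrophil genes was 155 to 355 CPM in the other groups and 387 to 988 CPM in DSS-treated KO. Most of that sum in the other groups came from Ly6g, at 142 to 350 CPM there and 284 to 388 CPM in DSS-treated KO. S100a8 was at 0 to 2.08 CPM in the other groups and 27.4 to 185 CPM in DSS-treated KO. Of 8 pancreas genes, 5 were in the table and 1 could be tested, which was lower. In bulk tissue, fewer cells of a type and less RNA per cell cannot be told apart, and the part of these shifts in the values of the ERAD genes was not tested.

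Some ERAD genes carry ER stress response elements near their start sites, short motifs read by the ER stress factors ATF6 and XBP1. The promoters shown here are those of the members in which a motif was found, because the expression of these genes is described by group further on. A promoter is taken from RefSeq (build GRCm38.p6, the same assembly as the mm10 of the files) as 250 bases before and 50 bases after a start site, and 9 of the 10 members had one. The 3 motifs searched, on both strands, were ERSE (CCAAT and CCACG with 9 bases between them), ERSE-II (ATTGG and CCACG with 1 base between them) and UPRE (TGACGTG). ERSE and ERSE-II share the CCACG box. ERSE was present in 39 of 32851 promoters (0.119%), including those of Derl3 and Syvn1, ERSE-II was present in 12 (0.0365%), including that of Herpud1, and UPRE was present in 661 (2.01%) and in 0 of the members' promoters. Capitals mark the fixed letters of the motif in each sequence, which is written from 5′ to 3′ on the plus strand, the strand of all 3 genes. In Herpud1 (chr8:94386179-94386478) ERSE-II lay 52 to 42 bases before the start, in Syvn1 (chr19:6046326-6046625) ERSE lay 44 to 26 bases before it, and in Derl3 (chr10:75893148-75893447) ERSE lay on the minus strand, 156 to 138 bases before it.
Herpud1: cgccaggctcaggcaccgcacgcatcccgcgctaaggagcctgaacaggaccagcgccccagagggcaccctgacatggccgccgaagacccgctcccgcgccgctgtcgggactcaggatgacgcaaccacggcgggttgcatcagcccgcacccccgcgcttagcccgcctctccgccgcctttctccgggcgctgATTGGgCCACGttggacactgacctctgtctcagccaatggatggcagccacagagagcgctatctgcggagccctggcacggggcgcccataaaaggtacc
Syvn1: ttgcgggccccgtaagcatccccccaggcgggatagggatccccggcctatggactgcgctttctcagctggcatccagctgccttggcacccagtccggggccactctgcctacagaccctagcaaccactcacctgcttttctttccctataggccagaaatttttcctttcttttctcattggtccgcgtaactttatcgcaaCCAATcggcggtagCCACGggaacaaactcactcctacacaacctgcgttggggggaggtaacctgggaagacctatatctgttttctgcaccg
Derl3: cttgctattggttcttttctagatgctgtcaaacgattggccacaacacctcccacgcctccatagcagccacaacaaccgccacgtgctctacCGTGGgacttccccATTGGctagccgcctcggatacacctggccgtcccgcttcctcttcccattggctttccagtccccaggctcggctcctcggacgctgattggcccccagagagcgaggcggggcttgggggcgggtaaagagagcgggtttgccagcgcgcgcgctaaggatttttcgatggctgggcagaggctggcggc
The Derl3 promoter therefore shows the reverse complement of ERSE. A match is a match of letters, not evidence that a factor bound there in these colons.

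After DSS the genotypes differed in the ubiquitin ligase gene Syvn1, in Derl2 and, close to the threshold, in Derl1. Among DSS-treated colons, Syvn1 was higher in KO by 0.66 on the log2 scale, Derl2 by 0.60 and Derl1 by 0.28, and these 3 of the 10 members passed the test, while Derl3 did not (edgeR's quasi-likelihood test over all 20472 genes, Benjamini-Hochberg adjusted p under 0.05). No member fell. Over all genes, 14.9% were called higher and 14.9% lower in this comparison. The libraries of the 2 groups did not overlap for 4 members, Sel1l, Syvn1, Derl1 and Derl2, each higher in KO, as for 20.6% of all genes. The median change of the 10 members was 0.26, against -0.04 for all genes.

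Most members were higher after DSS in KO colon. In DSS-treated against untreated KO, 8 of the 10 members were called higher and 0 lower, against 23.1% and 22.3% of all genes. The changes of these 8 ran from 0.48 for Derl1 to 0.89 for Derl2 on the log2 scale, and their libraries did not overlap, as for 31.6% of all genes in that direction. Os9 (0.23 ± 0.12 SE, edgeR adjusted p = 0.142) and Derl3 (0.71 ± 0.47 SE, edgeR adjusted p = 0.244) did not pass. The median change was 0.71, against 0.02 for all genes. In this comparison 12 of 12 smooth muscle genes were lower and 11 of 12 neutrophil genes higher, and their part in the members' values was not tested.

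In WT colon no member was called after DSS by edgeR, nor by DESeq2. Of all genes, 0.0244% were called there by edgeR, and DESeq2 called 1.02% of the genes it could test. An unadjusted p under 0.05 was found for 1 member, as for 7.01% of all genes. Herpud1 had the highest change (0.48 ± 0.16 SE, edgeR adjusted p = 0.561) and Derl3 the lowest (-0.57 ± 0.45 SE, edgeR adjusted p = 0.866). The other 8 lay between -0.04 and 0.16. Libraries did not overlap for Os9, Herpud1 and Derl1, all higher after DSS, as for 15.0% of all genes. The median change was 0.06, against -0.00021 for all genes.

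The difference between the DSS responses of the genotypes was tested as an interaction. It was above 0 for all 10 members and passed for 3, Edem2 (0.67 ± 0.16 SE, edgeR adjusted p = 0.0137), Syvn1 (0.85 ± 0.19 SE, edgeR adjusted p = 0.0110) and Derl2 (0.91 ± 0.17 SE, edgeR adjusted p = 0.00612), where 13.8% of all genes were called in this direction and 13.0% in the other. An unadjusted p under 0.05 was reached by 7 members, as by 40.0% of all genes. Derl1, Edem3 and Sel1l lay just outside the threshold, with edgeR adjusted p = 0.0526, 0.0550 and 0.0595. The median difference was 0.55, against 0.01 for all genes.

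Without DSS, untreated KO lay below untreated WT for most members, but none was called by edgeR, where 9.85% of all genes were, 3.87% higher and 5.97% lower. For 4 members, Edem1, Edem2, Edem3 and Derl2, the unadjusted p was under 0.05, as for 26.7% of all genes. DESeq2 called 3 members lower, Edem1, Edem2 and Edem3, and 9.34% of the genes it could test. Both KO libraries lay below both WT libraries for 8 members, as for 32.1% of all genes. The median change was -0.25, against 0.01 for all genes. Between these groups 12 of 12 T cell genes and 7 of 12 macrophage genes were lower in KO and 8 of 12 smooth muscle genes higher. The summed level of the T cell genes was 217 and 145 CPM in untreated WT and 22.7 and 12.1 CPM in untreated KO, and the part of these cells in the members' values was not tested. These 5 comparisons share libraries, so they are not independent of each other. With the thresholds of the study's own screen, an unadjusted p under 0.01 and a fold change over 3, the count of members was 0 in every comparison. Such genes made up 4.35% of all genes between the DSS-treated groups, 0.42% in WT, 13.9% in KO, 4.77% between the untreated groups and 11.2% in the interaction.

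**Figure D1:**
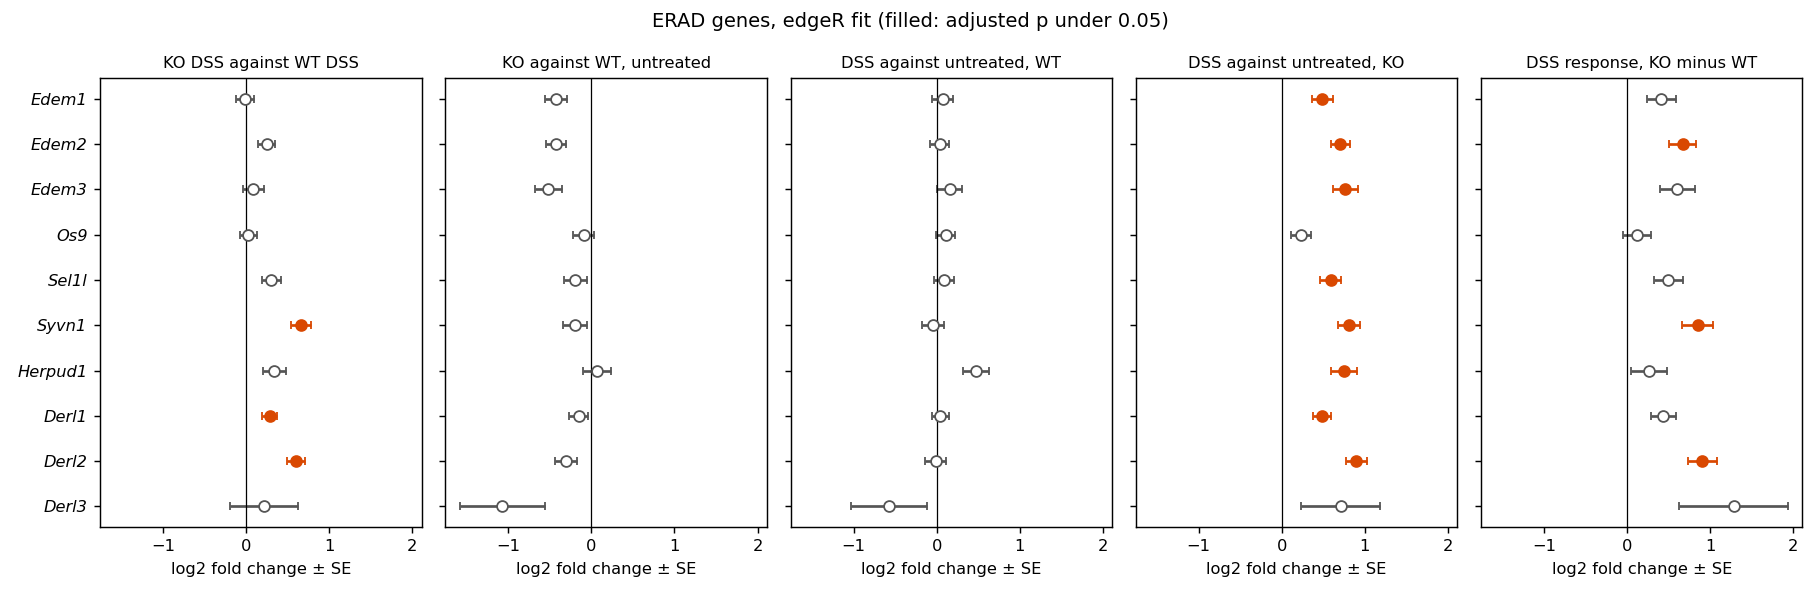
Log2 fold changes of the 10 ERAD genes (points) with their standard errors (bars) from the edgeR fit, 1 panel per comparison, with filled points for an adjusted p under 0.05. Filled points number 3 in DSS-treated KO against DSS-treated WT, 8 in DSS-treated against untreated KO, 3 in the difference between the DSS responses and 0 in the other comparisons.

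Ordered by their mean CPM, untreated KO was the lowest of the 4 groups for 9 of the 10 members and DSS-treated KO the highest for 8. The share of all genes with such an order was not counted, so these counts only describe the members. The exceptions were Herpud1, lowest in untreated WT, Edem1, highest in DSS-treated WT, and Derl3, highest in untreated WT. With library totals in place of TMM factors (weighted trimmed-mean scaling), untreated KO was again lowest for 9, and DSS-treated KO was highest for 7, with DSS-treated WT ahead for Edem1 and Os9 and untreated WT for Derl3. Within DSS-treated KO, library 1 was the lowest of the 3 for 8 members and library 4 the highest for 8 on the TMM scale, and these libraries also had the highest and the lowest TMM factor, 1.055 and 0.8742. With library totals, library 1 was lowest for 5 and library 4 highest for 4. The order of the groups thus held under both scalings for most members, and the order of the libraries within DSS-treated KO moved with the factors.

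**Figure D2:**
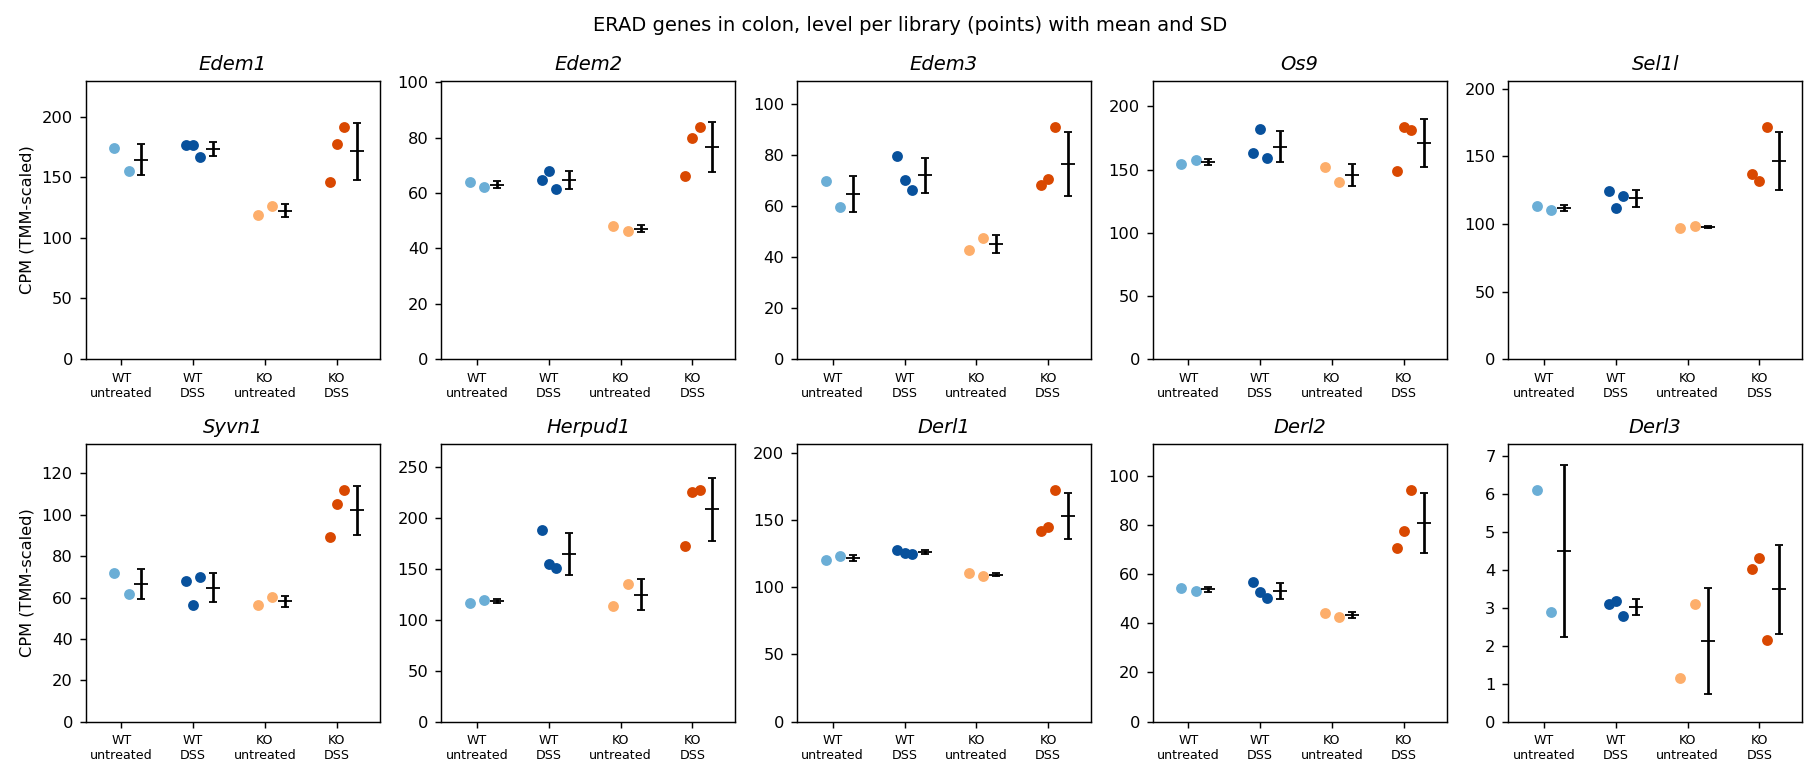
TMM-scaled CPM of the 10 ERAD genes in each library (points), with the mean and SD of each group (black bars), n = 2 for untreated and n = 3 for DSS-treated groups; each panel has its own axis from 0. The DSS-treated KO points lie above every other library for Sel1l, Syvn1, Derl1 and Derl2, and the untreated KO points below every other library for Edem1, Edem2, Edem3, Sel1l, Derl1 and Derl2.

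Compared per length, as CPM per kb of transcript, the members spanned a wide range of levels. Herpud1 reached 58.2 to 116 CPM per kb over the libraries and Derl3 0.870 to 4.62 CPM per kb, the lowest member in each of the 10 libraries. Herpud1 had the highest mean in 3 groups. In untreated WT the mean of Os9 was above it, but the libraries of both genes overlapped (60.7 and 62.0 CPM per kb for Os9, 59.8 and 61.3 CPM per kb for Herpud1). Derl1 followed these in each group. The next members by mean were Edem1 and Edem2 in the WT groups and in untreated KO, and Edem2, Derl2 and Syvn1 in DSS-treated KO, where Edem1 came seventh. The summed level of the 10 members was 305 and 295 CPM per kb in untreated WT, 351, 332 and 319 CPM per kb in DSS-treated WT, 259 and 269 CPM per kb in untreated KO and 348, 408 and 441 CPM per kb in DSS-treated KO. Untreated KO lay below every other library in this sum, untreated WT came next, and the DSS-treated groups overlapped.

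The EDEM genes encode the proteins that start the pathway by acting on client glycans. Edem1 (Gene ID 192193, chr6:108824045-108859356, plus strand), whose product binds ERdj5, measured 174 and 155 CPM in untreated WT, 177, 176 and 167 CPM in DSS-treated WT, 119 and 126 CPM in untreated KO and 146, 177 and 191 CPM in DSS-treated KO. Untreated KO lay below every other library, and the 2 DSS-treated groups overlapped. Edem1 rose with DSS in KO (0.49 ± 0.13 SE on the log2 scale, edgeR adjusted p = 0.0116), a call that was lost without either untreated KO library (edgeR adjusted p up to 0.0851), and DSS-treated KO did not differ detectably from DSS-treated WT (-0.02 ± 0.11 SE, edgeR adjusted p = 0.928).

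Edem2 (Gene ID 108687, chr2:155701673-155729475, minus strand), needed for the first mannose trimming step, measured 63.9 and 62.2 CPM in untreated WT, 64.6, 68.0 and 61.3 CPM in DSS-treated WT, 47.9 and 46.2 CPM in untreated KO and 66.3, 79.9 and 83.8 CPM in DSS-treated KO. WT libraries stayed within a narrow band with or without DSS, and the KO libraries stood on either side of it, with DSS-treated KO library 1 inside the WT range. The rise with DSS in KO was 0.70 ± 0.11 SE (edgeR adjusted p = 0.00106). Between the DSS-treated groups the change of 0.25 ± 0.10 SE did not pass (edgeR adjusted p = 0.0877), but it did without DSS-treated KO library 1 (edgeR adjusted p = 0.0185). Without untreated WT library 2 or untreated KO library 3, the interaction of Edem2 no longer passed (edgeR adjusted p up to 0.0616).

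Edem3 (Gene ID 66967, chr1:151755344-151822328, plus strand), a further mannosidase of this family, measured 69.5 and 59.6 CPM in untreated WT, 79.4, 69.9 and 66.3 CPM in DSS-treated WT, 42.5 and 47.6 CPM in untreated KO and 68.1, 70.4 and 90.7 CPM in DSS-treated KO. Untreated KO was again the lowest group with no overlap, and the other 3 groups overlapped. Edem3 rose with DSS in KO (0.76 ± 0.15 SE, edgeR adjusted p = 0.00293). In untreated KO against untreated WT the changes of Edem1, Edem2 and Edem3 were -0.43, -0.42 and -0.52, with edgeR adjusted p = 0.0780, 0.0572 and 0.0699.

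Os9 (Gene ID 216440, chr10:127094259-127121160, minus strand), the lectin that recognizes trimmed glycans, was the flattest member. It measured 154 and 158 CPM in untreated WT, 163, 182 and 159 CPM in DSS-treated WT, 152 and 140 CPM in untreated KO and 149, 183 and 181 CPM in DSS-treated KO. The DSS-treated groups overlapped each other and DSS-treated KO overlapped both untreated groups. No comparison of Os9 passed the test, and its changes lay between -0.09 and 0.23. Without DSS-treated KO library 1 the rise with DSS in KO was called (edgeR adjusted p = 0.0472).

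In the membrane complex, Syvn1 (Gene ID 74126, chr19:6046576-6053718, plus strand), the ubiquitin ligase HRD1, measured 71.8 and 61.6 CPM in untreated WT, 67.9, 56.6 and 69.9 CPM in DSS-treated WT, 56.4 and 60.1 CPM in untreated KO and 89.3, 105 and 112 CPM in DSS-treated KO. DSS-treated KO lay above every other library, and DSS-treated WT overlapped both untreated groups. With DSS, Syvn1 was 1.57-fold higher in KO than in WT colon (0.66 ± 0.12 SE on the log2 scale, edgeR adjusted p = 0.00441), a call kept in all 10 fits that left out 1 library. Against untreated colon it rose 1.75-fold in KO (0.81 ± 0.14 SE, edgeR adjusted p = 0.00137), against -0.04 ± 0.13 SE in WT (edgeR adjusted p = 0.987). The interaction did not pass without untreated WT library 2 (edgeR adjusted p = 0.0517). In the same annotation of the genome as used for transcript lengths (GENCODE M21), Syvn1 shares 91 bases with Mrpl49 on the other strand, whose change between DSS-treated KO and WT was 0.19 (edgeR adjusted p = 0.274). The sources do not state whether the counting used strand.

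Sel1l (Gene ID 20338, chr12:91806043-91849157, minus strand), the scaffold that stabilizes HRD1, measured 113 and 110 CPM in untreated WT, 124, 112 and 121 CPM in DSS-treated WT, 97.3 and 98.2 CPM in untreated KO and 137, 132 and 172 CPM in DSS-treated KO. DSS-treated KO stood above and untreated KO below all WT libraries. The rise with DSS in KO was 0.59 ± 0.12 SE (edgeR adjusted p = 0.00430). Between the DSS-treated groups the change of 0.30 ± 0.11 SE did not pass (edgeR adjusted p = 0.0617), although it did without DSS-treated KO library 2 (edgeR adjusted p = 0.0417).

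Herpud1 (Gene ID 64209, chr8:94386429-94395371, plus strand), a stress-induced membrane protein that binds the HRD1 complex, measured 117 and 120 CPM in untreated WT, 188, 155 and 151 CPM in DSS-treated WT, 114 and 135 CPM in untreated KO and 172, 225 and 227 CPM in DSS-treated KO. DSS-treated libraries of both genotypes lay above all untreated ones. The rise passed in KO (0.74 ± 0.16 SE, edgeR adjusted p = 0.00418) but not in WT, and the difference between these responses was 0.27 ± 0.22 SE (edgeR adjusted p = 0.392). Between the DSS-treated groups the change was 0.34 ± 0.14 SE (edgeR adjusted p = 0.0896), and it passed without DSS-treated KO library 1 (edgeR adjusted p = 0.0225). The GENCODE M21 annotation places the antisense gene Gm15890 over 535 bases of Herpud1, and no value of it was used here.

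Among the Derlins, Derl1 (Gene ID 67819, chr15:57869502-57892418, minus strand) measured 120 and 123 CPM in untreated WT, 127, 125 and 125 CPM in DSS-treated WT, 110 and 109 CPM in untreated KO and 142, 145 and 172 CPM in DSS-treated KO. The 4 groups did not overlap. Its rise with DSS in KO was 0.48 ± 0.11 SE (edgeR adjusted p = 0.00491). The call between the DSS-treated groups (0.28 ± 0.09 SE, edgeR adjusted p = 0.0458) was close to the threshold and was lost in 9 of the 10 fits that left out 1 library (edgeR adjusted p up to 0.126), remaining only without DSS-treated KO library 1 (edgeR adjusted p = 0.0280).

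Derl2 (Gene ID 116891, chr11:71007440-71019841, minus strand) measured 54.4 and 53.0 CPM in untreated WT, 56.7, 52.8 and 50.3 CPM in DSS-treated WT, 44.4 and 42.5 CPM in untreated KO and 70.5, 77.5 and 94.1 CPM in DSS-treated KO. WT libraries overlapped with and without DSS, all KO libraries lay outside the WT range, and the 2 KO groups lay on opposite sides of it. After DSS, Derl2 was 1.52-fold higher in KO colon (0.60 ± 0.11 SE on the log2 scale, edgeR adjusted p = 0.00457). It rose 1.86-fold with DSS in KO (0.89 ± 0.13 SE, edgeR adjusted p = 0.000563), against -0.01 ± 0.12 SE in WT (edgeR adjusted p = 0.998). These calls and the interaction of Derl2 held in all 10 fits that left out 1 library. Derl2 shares 231 bases with Mis12 on the other strand, which encodes a kinetochore protein and moved in the same direction (0.44 between the DSS-treated groups, edgeR adjusted p = 0.0164, and 0.75 with DSS in KO, edgeR adjusted p = 0.00128). Mean levels of Mis12 were 17.5 to 29.6 CPM over the 4 groups, and if strand was not used, reads from the shared bases cannot be told apart.

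Derl3 (Gene ID 70377, chr10:75893398-75895941, plus strand) encodes a Derlin that is induced by ER stress. It measured 6.09 and 2.89 CPM in untreated WT, 3.09, 3.19 and 2.77 CPM in DSS-treated WT, 1.15 and 3.10 CPM in untreated KO and 4.01, 4.30 and 2.15 CPM in DSS-treated KO. No comparison of Derl3 passed, and the standard errors of its log2 changes were 0.41 to 0.65. Its counts were 58 to 379 per library, where the other 9 members had at least 2149. The 2 libraries of each untreated group stood further apart than the 3 of DSS-treated WT.

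Levels of Derl3 were most like those of a few plasma cell genes. Over the 10 libraries, the 5 genes whose log2 CPM was most like that of Derl3 among 12447 genes were Mzb1 (Pearson r = 0.92), Igkj2 (0.91), Jchain (0.90), Mbd4 (0.89) and Igha (0.88), of which Mzb1, Jchain and Igha are plasma cell genes and Igkj2 an immunoglobulin joining segment. Mzb1, a chaperone of antibody assembly, measured 29.7 and 15.0 CPM in untreated WT, 13.0, 12.0 and 11.1 CPM in DSS-treated WT, 4.77 and 8.25 CPM in untreated KO and 14.2, 21.1 and 6.06 CPM in DSS-treated KO. The library with the most Derl3, untreated WT library 2, also had the most Mzb1 and Jchain (665 CPM), and the library with the least, untreated KO library 2, had the least of both. The summed level of 13 plasma cell genes was 3629 and 2122 CPM in untreated WT, 1592 to 1958 CPM in DSS-treated WT, 1090 and 2216 CPM in untreated KO and 1129 to 2499 CPM in DSS-treated KO. Of these 13 genes, Fkbp11 (1.09) and Sdc1 (0.56) were called higher and Tent5c (-1.25) lower between the DSS-treated groups, and the part of plasma cells in the levels of Derl3 was not tested. Other genes of this list followed Derl3 less. Over the 13 genes Pearson r with Derl3 ran from -0.32 for Sdc1 to 0.92 for Mzb1, with 0.10 for Tent5c, 0.27 for Cd79a and 0.36 for Prdm1. Sdc1 was highest in untreated KO library 2 (221 CPM), where Derl3 was lowest, and Prdm1 in DSS-treated KO library 4 (27.2 CPM). The libraries share 4 groups, so each correlation is a description.

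**Figure D3:**
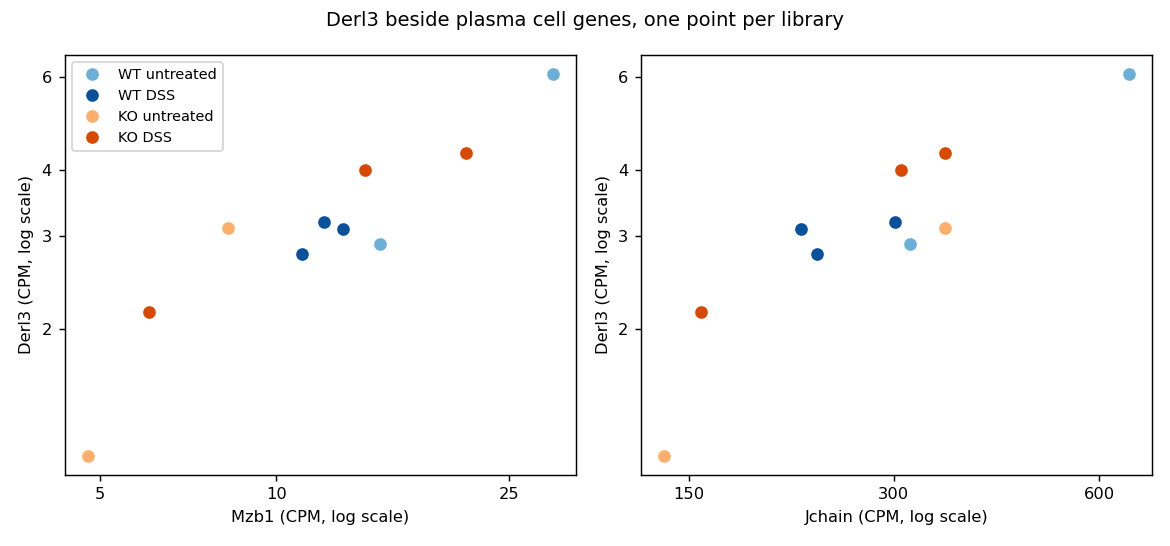
Derl3 against Mzb1 (left) and Jchain (right), both axes in TMM-scaled CPM on a log scale, 1 point per library and 1 color per group. Untreated WT library 2 lies at the upper right of both panels with 6.09 CPM of Derl3 and untreated KO library 2 at the lower left with 1.15 CPM.

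The remaining 9 members mostly followed each other. Over the same libraries, Pearson r between these 9 was 0.46 (Os9 with Syvn1) to 0.98 (Derl1 with Derl2, and Sel1l with Derl1), and it was 0.04 to 0.47 for Derl3 with the other members. The genes most like Sel1l were Xbp1 (r = 0.99), Secisbp2l (0.99), Kif5b (0.99), Hnrnph2 (0.99) and Nfkbia (0.99). Xbp1, a transcription factor of the unfolded protein response (UPR), measured 245 and 247 CPM in untreated WT, 318, 261 and 287 CPM in DSS-treated WT, 198 and 195 CPM in untreated KO and 339, 309 and 531 CPM in DSS-treated KO. It rose with DSS in KO (1.00, edgeR adjusted p = 0.00440), and its change of 0.45 between the DSS-treated groups did not pass (edgeR adjusted p = 0.0949).

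Some ratios between members lay outside the range of all other libraries in DSS-treated KO colon. Of 9 ratios computed, 5 were higher and 1 was lower in all DSS-treated KO libraries than in any other, and 3 overlapped. Within each library, the ratio of Derl2 to Derl1 in CPM per kb was 0.559 and 0.532 in untreated WT, 0.550, 0.522 and 0.499 in WT with DSS, 0.498 and 0.484 in KO without DSS and 0.617, 0.662 and 0.676 in DSS-treated KO. The ratio of the ligase Syvn1 to the lectin Os9 was 0.358 and 0.300 in untreated WT, 0.320, 0.239 and 0.337 in WT with DSS, 0.284 and 0.330 in KO without DSS and 0.459, 0.440 and 0.475 in DSS-treated KO. Both ratios were higher in each DSS-treated KO library than in any other. The same held for Edem2 to Edem1, at 1.11 to 1.16 in DSS-treated KO and 0.928 to 1.03 elsewhere, and for Syvn1 to Sel1l, at 1.16 to 1.42 against 0.906 to 1.13, and for Derl2 to Os9, at 0.419 to 0.515 against 0.287 to 0.349. Os9 to Edem2 was lower, at 1.95 to 2.07 against 2.18 to 2.86. The ratios that overlapped were Edem3 to Edem1 (0.738 to 0.882 in DSS-treated KO, 0.666 to 0.835 elsewhere), Herpud1 to Syvn1 (3.27 to 3.64 and 2.76 to 4.70) and Derl3 to Derl2 (0.0444 to 0.111 and 0.0503 to 0.218). A ratio within a library does not depend on its scaling factor. These ratios were picked after the levels were seen and were not tested.

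**Figure D4:**
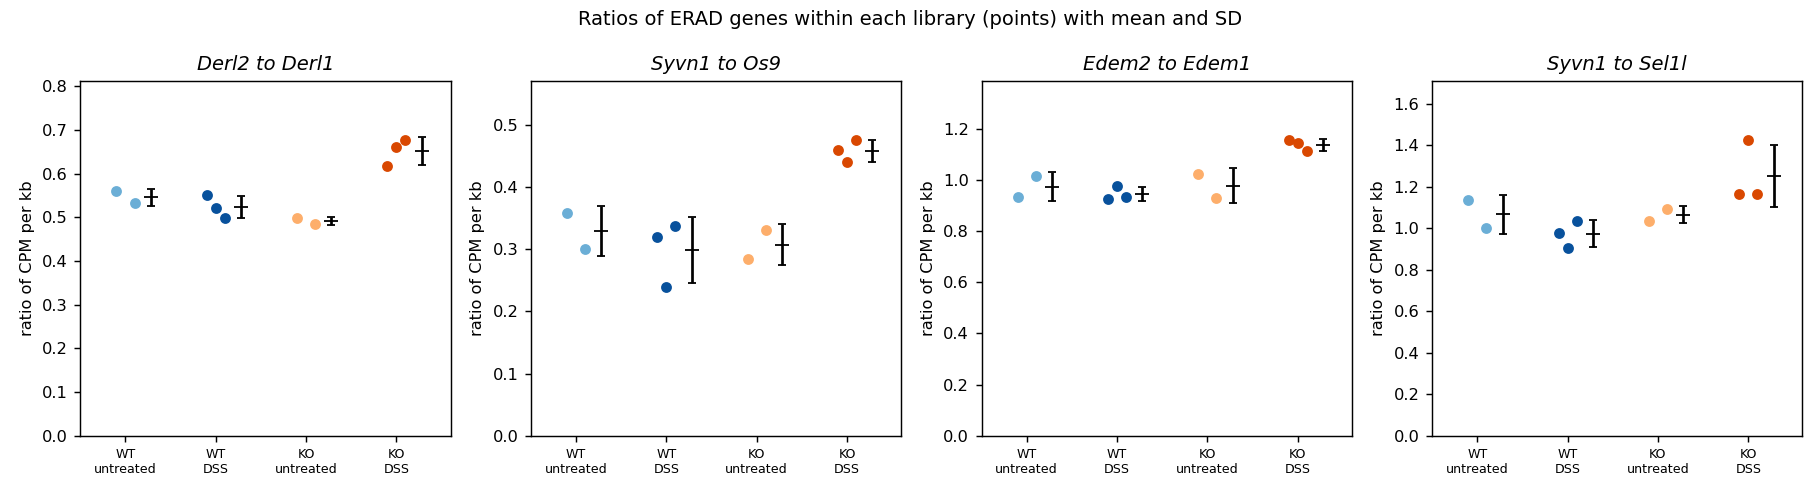
Ratios of CPM per kb of pairs of ERAD genes within each library (points), axes from 0, with the mean and SD of each group (black bars), n = 2 or 3, for 4 of the 5 ratios that were higher in DSS-treated KO. In all 4 panels the DSS-treated KO libraries lie above every other library, for example at 0.617 to 0.676 for Derl2 to Derl1.

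A list of 64 other ERAD genes gave the setting of these changes. Between the DSS-treated groups 22 of the 64 were called higher and 3 lower in KO, where 14.9% of all genes were called in each direction, with a median change of 0.12 against -0.04 for all genes. The rises with the highest changes were Sec61b, a subunit of the membrane channel (0.97 ± 0.13 SE, edgeR adjusted p = 0.00137), and the luminal chaperones Hsp90b1 (0.87 ± 0.15 SE, edgeR adjusted p = 0.00319), Hspa5 (0.86 ± 0.21 SE, edgeR adjusted p = 0.0140) and Dnajb11 (0.82 ± 0.14 SE, edgeR adjusted p = 0.00286). Hspa5 encodes BiP, the chaperone that ERdj5 recruits through its J domain. The 3 falls were Uggt2, a paralog of the glucosyltransferase that senses folding (-0.93, edgeR adjusted p = 0.0278), the membrane ubiquitin ligase Rnf139 (-0.40, edgeR adjusted p = 0.00656) and the Golgi mannosidase Man1a (-0.35, edgeR adjusted p = 0.0391).

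By step of the pathway, to be read against the same 14.9%, the calls between the DSS-treated groups were 4 higher of 7 luminal partners, 5 of 9 accessories of the membrane complex, 6 of 12 genes of extraction from the membrane, 5 of 17 genes of cytosolic steps (Stub1, Get4, Ubqln1, Ubqln2 and Sgta) and 2 of 14 other ligases and conjugating enzymes (Ube2j2 and Ube2k). In the group that reads and trims glycans, 0 of 5 were higher and 2 lower. Vcp, which encodes p97, rose by 0.62 (edgeR adjusted p = 0.00573), and its cofactors Ufd1 and Nploc4 by 0.32 and 0.52 (edgeR adjusted p = 0.0121 and 0.0103). Of the accessories, Selenos rose by 0.68 (edgeR adjusted p = 0.00656) and the conjugating enzyme Ube2g2 by 0.69 (edgeR adjusted p = 0.000681). Apart from the largest changes, the genes named by step were chosen after their values were seen.

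With DSS in KO colon, 30 of the 64 were called higher and 3 lower, against 23.1% and 22.3% of all genes (median 0.27 against 0.02), led by Sec61b (1.67), Sdf2l1 (1.60), Hspa5 (1.55) and Hsp90b1 (1.46), while Uggt2 (-1.70), Usp13 (-2.03) and Trim13 (-0.73) fell. Usp13, a deubiquitinating enzyme, was too low on average for the rule that chose the other named genes. In WT colon 0 were called by edgeR, with 4 at an unadjusted p under 0.05, and 0 by DESeq2. In untreated KO against untreated WT, Usp13 was higher (1.37) and 7 were lower, against 3.87% and 5.97% of all genes, the latter including Sdf2l1 (-0.84), Txndc5 (-0.73), Hsp90b1 (-0.70) and Usp25 (-0.68). The interaction passed for 17 in the direction of a larger response in KO and for 3 in the other, against 13.8% and 13.0% of all genes, with Sec61b at 1.63, Hsp90b1 at 1.57, Sdf2l1 at 1.55 and Hspa5 next, and with Usp13 at -2.18, Uggt2 at -1.88 and Svip, a small p97-binding protein, at -0.60. Hsp90b1 thus fell in untreated KO and rose with DSS in KO, as Sdf2l1 did.

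**Figure D5:**
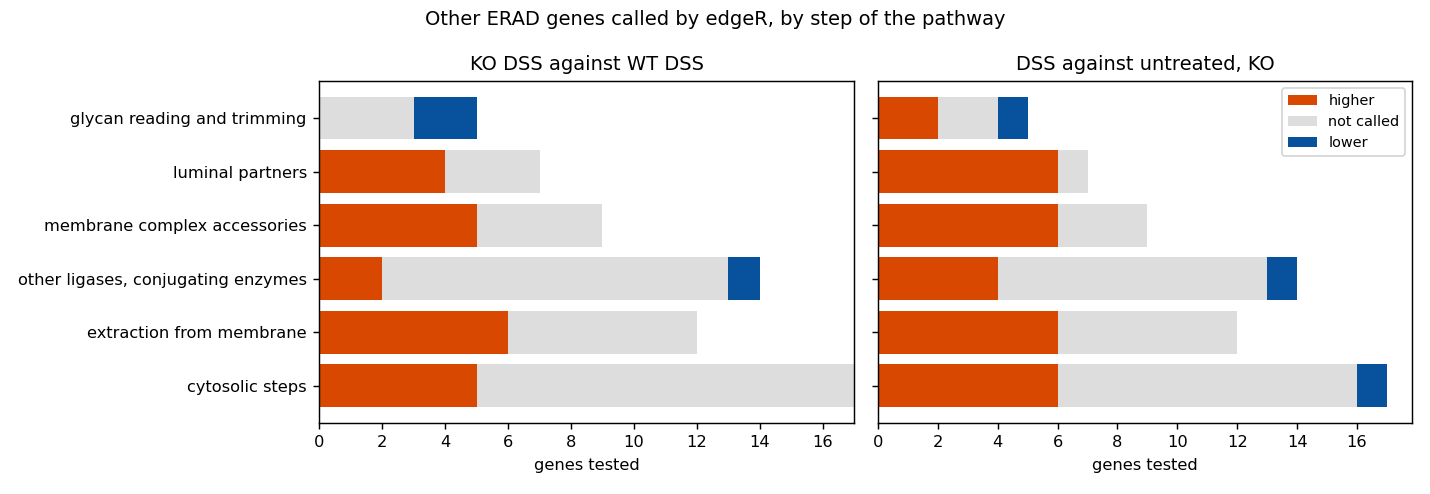
Numbers of other ERAD genes called higher (red), lower (blue) or not called (grey) by edgeR at an adjusted p under 0.05, by step of the pathway, in DSS-treated KO against DSS-treated WT (left) and DSS-treated against untreated KO (right). Calls of a rise number 22 of 64 genes on the left and 30 of 64 on the right, and the glycan group has 0 rises on the left.

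The sensors and factors of the UPR, which control the transcription of many ERAD genes, did not move one way. Of 12 tested, Atf4 and Atf6b were higher and Ern2 and Mbtps1 lower between the DSS-treated groups. These counts lay near the share of all genes, 14.9% in each direction. With DSS in KO, Atf4, Atf6b, Xbp1, Eif2ak3 and Mbtps2 were higher and Ern2, Ddit3 and Creb3l2 lower, against 23.1% and 22.3% of all genes. In WT 0 were called by edgeR (3 at an unadjusted p under 0.05, 0 by DESeq2). Atf4 rose (0.82, edgeR adjusted p = 0.00155 between the DSS-treated groups), with 139, 131 and 134 CPM in DSS-treated WT and 225, 210 and 275 CPM in DSS-treated KO. Ern2, the stress sensor of goblet cells, fell (-1.12, edgeR adjusted p = 0.000523; named after its value was seen), and Muc2, the main goblet cell mucin, was lower in the same comparison (-0.83, edgeR adjusted p = 0.00378). With DSS in KO, Ern2 fell (-0.97, edgeR adjusted p = 0.000319), whereas Muc2 was at 0.03 (edgeR adjusted p = 0.895), with -0.64 between the untreated groups (edgeR adjusted p = 0.0513). Of the 15 goblet cell genes, 0 were called higher and 9 lower between the DSS-treated groups. In KO with DSS, 4 of the 15 were called higher and 4 lower, against 23.1% and 22.3% of all genes. The part of goblet cell content in the members' values was not tested.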

How the data were processed

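RNA from whole colon of WT and ERdj5-KO mice, untreated or given 2% DSS, was sequenced from TruSeq Stranded mRNA libraries. According to the submitters' processing notes the build was mm10 and the tools included StringTie 2.1.3b, HISAT2 2.1.0, Bowtie2 2.3.4.1 and Trimmomatic 0.38, with no role named for each. Whether counting used strand is not stated. The authors deposited read counts per gene, not normalized, and these were tested. Another 30 per-library columns (FPKM, TPM and other normalized values), 4 columns of group means and 8 columns of the authors' own comparisons (fold changes and p-values) were not used.

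Columns were put into groups by genotype and treatment in their names. Counts were scaled by TMM factors, filtered with filterByExpr on the 4 groups (20472 of 29320 genes) and fitted with 1 mean per group over all 10 libraries in edgeR 4.0.16 (R 4.3.3), with the quasi-likelihood test and Benjamini-Hochberg adjustment over all tested genes. Genes with an adjusted p under 0.05 were called. CPM are TMM-scaled, errors of CPM are SD between libraries, and the standard error of a log2 change is its size over the root of the F statistic. CPM per kb divide by the median length of the gene's annotated transcripts with a RefSeq mRNA accession (GENCODE M21). The script was tested on simulated data. Between replicates, counts of 14065 genes differed beyond sampling noise (mean chi-square 47.9 to 196 per gene, where noise gives 1), so each library counted once.

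All members were named in each comparison. Of other ERAD genes called in a comparison, up to 4 rises and 4 falls with the largest change were named where mean expression was at or above a log2 CPM of 1. For Sel1l and Derl3, the 5 genes with the highest Pearson correlation were named, and of marker and UPR lists those with the highest mean. For Atf4 this held only among the UPR genes called between the DSS-treated groups, and other genes of these lists were named as well. The members and the 16 gene lists were chosen with earlier results of these data known. Gene positions and promoters came from RefSeq GRCm38.p6 and overlaps of genes from GENCODE M21. To RefSeq, 29251 of 29320 genes matched. In the table Hm13 and Marchf6 stand as H13 and March6. Alternatives were RLE factors, library totals without factors (added after the factors had been seen), DESeq2 1.42.0, 2 other filters, a fit of only the compared groups, the library number as a block, the study's screening thresholds (p under 0.01 and fold over 3) and leaving out each library.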

Additional observations from a re-analysis of the deposited data

Results flagged for a closer look

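The DSS responses of the genotypes differed, by the test of the difference itself, for Edem2 (0.67 on the log2 scale, KO minus WT), Syvn1 (0.85) and Derl2 (0.91). Each of the 3 was higher in DSS-treated than in untreated KO, with no overlap of libraries, as for 31.6% of all genes. Each overlapped between the WT groups. For Edem2 neither comparison of the genotypes passed, with -0.42 without DSS (edgeR adjusted p = 0.0572) and 0.25 with DSS (edgeR adjusted p = 0.0877). The groups of these data have 2 or 3 libraries, too few for a test of single outlying libraries.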

How the results depend on the processing

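Of 840 log2 changes of single members recomputed under alternatives, 764 kept their direction and their side of the threshold, 39 passed only under the alternative, 20 no longer passed and 17 changed sign, none of them called in either fit. In DSS-treated KO against DSS-treated WT, 3 members were called and 2 to 5 when 1 library was left out (5 without KO library 1). In DSS-treated against untreated KO the count was 8, with 7 to 9 when 1 library was left out and 6 in the fit of only these groups. That fit called 3171 of 19684 genes higher, against 4730 of 20472 in the main fit. In untreated KO against untreated WT, 0 members were called, but 3 were lower with library totals, 3 with DESeq2, 2 among genes with at least 10 counts in every library, 4 in the fit of only these groups and 0 to 3 when 1 library was left out (without either of DSS-treated KO libraries 1 or 4 calls appeared). The interaction passed for 3 members, but for 6 with library totals, 6 with DESeq2, 6 among genes with at least 10 counts in every library and 1 to 6 when 1 library was left out (1 without untreated WT library 2, 6 without DSS-treated KO library 1). Calls over all genes also varied. Genes lower in untreated KO numbered 1223 of 20472 in the main fit, 1115 with library totals and 1910 of 20454 with DESeq2. They numbered 1208 of 16366 with the count minimum and 1924 of 19426 in the fit of only the untreated groups. An interaction above 0 was called for 2830 genes in the main fit, 2268 with library totals, 3397 with DESeq2 and 2900 of 16366 with the count minimum. The screening thresholds of the study (p under 0.01 and fold over 3) gave 0 members in every comparison, since no member's change was that large. No member was called in WT under any setting.

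Correlations of deviations from the group means were -0.144 to 0.173 for same-numbered libraries across groups and -0.276 to 0.445 for differently numbered ones. In an untreated group the 2 libraries deviate by equal and opposite amounts. This check therefore cannot decide whether the library numbers pair the samples. With the replicate block, 4 members were called between the DSS-treated groups (Derl1 was lost, with edgeR adjusted p = 0.0706, and Edem2 and Herpud1 were gained, with 0.0478 and 0.04999), 8 with DSS in KO, 1 lower in untreated KO (Edem2), 3 in the interaction and 0 in WT. Number 1 occurred only in DSS-treated KO, so the block fitted that library exactly and it carried no weight in these comparisons. Edem2 and Herpud1 also passed when that library was left out. Over all genes, the block lowered the calls between the DSS-treated groups from 6096 to 3622. Leaving out DSS-treated KO library 1 gave 5591, and leaving out DSS-treated WT library 3 gave 3237. Library totals shifted the median of all genes with DSS in KO by -0.10.

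No fold change that changed sign was called, and the one furthest from 0 was that of Derl3 in WT (-0.57). Between the DSS-treated groups Edem1 was at 0.0057 in the fit of only these groups and 0.0869 with the block, and Os9 at -0.0437 with library totals. In WT, Edem2 was at -0.0098 and Derl1 at -0.00040 with library totals. With 1 library left out, Edem1 ranged from -0.101 to 0.0804, Edem3 from -0.0535 to 0.165 and Os9 from -0.0252 to 0.107 between the DSS-treated groups. In WT, Edem1 ranged from -0.0022 to 0.158, Edem2 from -0.00071 to 0.0574, Syvn1 from -0.146 to 0.0735, Derl2 from -0.0600 to 0.00798 and Derl3 from -1.01 to 0.0619, and Herpud1 in untreated KO from -0.0598 to 0.192. The cause of these changes was not tested. Counts of 58 to 379 limit what can be said of Derl3.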

Other observations

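Other genes with ERSE in a promoter were counted after the members' motifs had been seen. Of 22 such tested genes that are not members, 10 were called higher and 1 lower in DSS-treated KO against DSS-treated WT, where 14.9% of all genes were called in each direction, with a median change of 0.46 against -0.04 for all genes. The rises were Hspa5, Hsp90b1, Calr, Canx, Pdia6, Creld2, Dnajc3, Hnrnpa3, Xlr3a and Xlr3c, of which the first 7 encode proteins of the ER, and the fall was Spats2l. In WT colon with DSS none was called, and in untreated KO 0 were higher and 3 lower (Hsp90b1, Pdia6 and Spats2l). Of 8 tested genes with ERSE-II that are not members, 2 were higher, Dnajb11 and Krtcap2, and 2 lower, Gm46430 and Lgalsl, between the DSS-treated groups, with a median change of -0.17. These are counts of a list made from matches of letters and were not tested.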
